A study of Drosophila montana and Drosophila virilis with 24 samples.

Results

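The comparison described here set Drosophila montana females that had recovered from chill coma for 1 h against females that had recovered for 15 min, in the whole body. It rests on 6 of the 24 arrays of the series, 3 for each recovery time, chosen by the titles of the arrays. All flies were mature, 20 days old at collection and kept under 22 h of light and 2 h of darkness, and all pools were collected in the same window after lights on. Recovery flies had spent 16 h at -6°C before they were allowed to recover, and the labels name no mutation, transgene or strain. Control flies stayed at 19°C, cold-hardened flies had 1 h at 0°C, and cold-acclimated flies had 6 days at 5°C. These 3 groups, of 3 arrays each, entered the fit with the recovery arrays, so that the spread was estimated from 15 arrays. Each array was hybridised with RNA of a separate pool of 10 flies. The spread between arrays therefore holds that between pools together with that of labelling, hybridisation and slide. Both recovery groups share the same cold exposure and differ in the labels by the time allowed afterwards.

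Chill coma is the reversible loss of movement of an insect at low temperature, caused by failure of nerve and muscle function as ion gradients run down. Flies that are returned to warmth restore these gradients and then stand up, and in Drosophila melanogaster heat shock genes are known to be transcribed in this period. The heat shock response is driven by the transcription factor Hsf, and its products include Hsp70 family chaperones, the J-domain and BAG-domain proteins that regulate them, small heat shock proteins and the noncoding RNA hsr-omega.

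The custom one-colour array carried 218 named genes, and 213 of them had probes above background and were tested. All levels are log2 signals relative to the 75th percentile of the same array, so they compare groups within a gene and not genes with each other. A gene was called where the adjusted p of limma was under 0.05 (Benjamini-Hochberg adjustment over the 213 genes). The 75th percentile of the processed signal was 481 to 678 on the 15 min arrays, 413 to 583 on the 1 h arrays and 662 to 881 on the other D. montana arrays. On the control arrays alone it was 699 to 847, above every recovery array, so brightness differed along with recovery in each comparison with control. Between 75.7% and 78.6% of the spots were well above background on the recovery arrays, against 81.2% to 82.6% on the control arrays. Over all other D. montana arrays the share was 76.6% to 83.1%, which overlaps the recovery arrays. No spot was saturated. The number of arrays, 3 a group, limits the precision. In RNA of whole flies, a change in the number of cells of a type and a change of RNA per cell cannot be told apart.

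Between 15 min and 1 h of recovery, 4 genes rose, and all 4 belong to the heat shock response: hsr-omega, DnaJ-1, Hsp68 and stv. Their levels at 1 h were 1.76 to 3.55 times those at 15 min. The 4 genes make up 1.88% of the 213 genes tested, and 0 genes (0%) were called lower by limma. At an unadjusted p under 0.05, limma had 10 genes higher (4.69%) and 8 lower (3.76%). The 3 arrays of 1 h all lay above the 3 arrays of 15 min for 12 genes (5.63%) and all below them for 9 genes (4.23%). Among the 12, ey and pwn had no probe well above background on all 15 min arrays. Differences were positive for 113 genes and negative for 100, with a median of 0.01, so the bulk of the genes sat around 0. Their median was 0.04 in the third of genes with the lowest signal and -0.02 in the third with the highest.

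**Figure D1:**
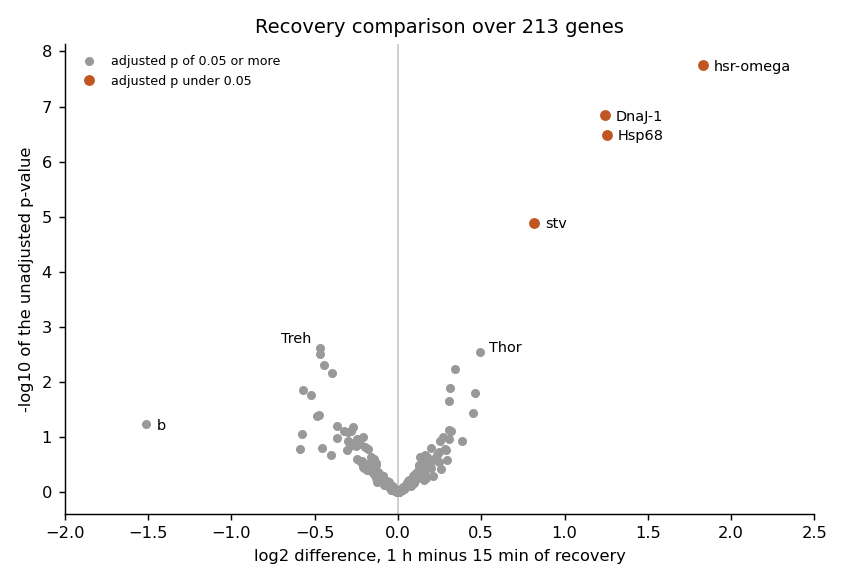
Log2 difference of 1 h minus 15 min of recovery (horizontal) against -log10 of the unadjusted p of limma (vertical) for the 213 genes, 1 point a gene. The 4 genes with an adjusted p under 0.05 lie at the upper right, between 0.82 and 1.83, and b lies alone at the left at -1.51 with a wide spread between arrays.

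hsr-omega gives rise to long noncoding RNAs that organise nuclear bodies holding RNA-processing proteins, and it is one of the most strongly transcribed loci of heat-shocked D. melanogaster. Its levels were 2.40, 2.55 and 2.29 at 15 min of recovery and 4.60, 4.30 and 3.82 at 1 h. The groups were far apart, with the lowest 1 h array more than 1 log2 unit above the highest 15 min array. The difference was 1.83 ± 0.18 log2 units (SE; 95% interval 1.45 to 2.21), a 3.55-fold rise with an adjusted p of 3.81e-06 in limma. Its 3 probes gave nearly the same difference, from 1.82 to 1.84. The control arrays stood at 2.58, 2.71 and 2.54, which overlaps the range at 15 min. Against control the difference was -0.20 at 15 min (limma adjusted p = 0.482) and 1.63 at 1 h (limma adjusted p = 1.83e-05). With normexp the value at 1 h was 1.06 and did not pass (limma adjusted p = 0.144).

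DnaJ-1 encodes an Hsp40 co-chaperone, a J-domain protein that delivers unfolded clients to Hsp70 and stimulates its ATPase. Its levels were 2.46, 2.30 and 2.23 at 15 min and 3.90, 3.45 and 3.35 at 1 h, again without overlap. The rise was 1.24 ± 0.14 log2 units (SE; 95% interval 0.94 to 1.54), or 2.36-fold, with an adjusted p of 1.53e-05 in limma, and its 5 probes ran from 1.18 to 1.28. The control arrays, at 2.72, 2.83 and 2.61, lay above all 3 arrays of 15 min and below all 3 arrays of 1 h. The difference from control was -0.39 at 15 min, which did not pass the threshold (limma adjusted p = 0.0859), and 0.85 at 1 h, which did (limma adjusted p = 0.000596). The call at 1 h against control was lost with spike-in scaling (adjusted p = 0.184), median scaling (0.0726) and the normexp background correction (0.385) in the same limma fit.

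Hsp68 is a stress-inducible chaperone of the Hsp70 family. Its 15 min arrays stood at 1.47, 1.48 and 1.44, and its 1 h arrays at 3.08, 2.53 and 2.54. The 15 min pools differed by less than 0.1 log2 units, and every 1 h pool was above them by over 1 unit. The rise was 1.25 ± 0.15 log2 units (SE; 95% interval 0.93 to 1.57), or 2.38-fold, with an adjusted p of 2.31e-05 in limma. The 7 probes disagreed in size, from 0.64 to 1.77, although each passed the threshold when probes were tested alone. Hsp70 genes have closely similar sequences, and which of them each probe matches was not tested. Against control, at 1.54, 1.46 and 1.38, the difference was 0.00 at 15 min (limma adjusted p = 0.997) and 1.26 at 1 h (limma adjusted p = 2.26e-05). With normexp the difference at 1 h was 0.758 and the call was lost (limma adjusted p = 0.152).

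The fourth gene, stv (starvin), encodes a BAG-domain protein that acts as a nucleotide exchange factor of Hsp70, and it is known to be transcribed during recovery from cold in D. melanogaster. Its levels were -0.63, -0.59 and -0.84 at 15 min and 0.41, 0.00 and -0.03 at 1 h. The groups did not overlap, and the rise of 0.82 ± 0.13 log2 units (SE; 95% interval 0.54 to 1.10), or 1.76-fold, had an adjusted p of 0.000691 in limma. Its 4 probes ran from 0.74 to 0.84. With controls at -0.84, -1.03 and -0.83, the difference from control was 0.22 at 15 min (limma adjusted p = 0.285) and 1.03 at 1 h (limma adjusted p = 3.14e-05). In all 4 genes, replicate 1 was the highest of the 1 h arrays. Without that array limma still called the same 4 genes.

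**Figure D2:**
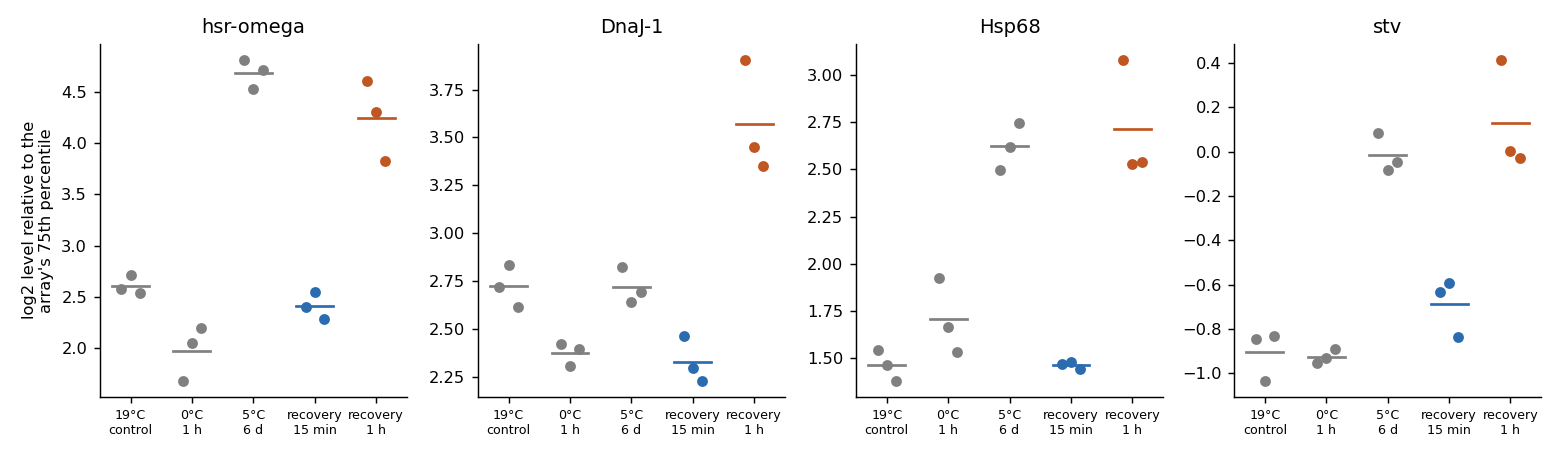
Log2 level relative to the 75th percentile of the array for hsr-omega, DnaJ-1, Hsp68 and stv in the 5 D. montana groups, with 1 point for each of 3 arrays and a line at the mean; each panel has its own vertical scale. The 15 min arrays (blue) sit near the control arrays, and the 1 h arrays (orange) lie above them in every panel.

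The recovery arrays of a given replicate number shared a slide, so each slide gave a difference of its own. For hsr-omega these were 2.20, 1.75 and 1.54 on slides 1, 2 and 3. DnaJ-1 had 1.44, 1.16 and 1.12, Hsp68 had 1.61, 1.05 and 1.10, and stv had 1.05, 0.59 and 0.81. Since the recovery groups did not overlap in any of these genes, each such difference had to be positive, so the signs test nothing further. The highest value was on slide 1 for each gene. Of the alternatives tried, the normexp background correction ended the calls of DnaJ-1 (limma adjusted p = 0.269), Hsp68 (0.119) and stv (0.269), and spike-in scaling ended that of stv (0.0964). hsr-omega passed the threshold of limma in all 26 alternatives.

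Across the 5 groups, the same 4 genes had different orders. hsr-omega was lowest after hardening (1.97 ± 0.26, SD, n = 3), followed by 15 min of recovery (2.41 ± 0.13), control (2.61 ± 0.09), 1 h of recovery (4.24 ± 0.39) and acclimation (4.68 ± 0.14). The ranges of 15 min and control overlapped, as did those of 1 h and acclimation. For Hsp68 and stv, too, the 1 h arrays overlapped the acclimated ones and lay above all control, hardened and 15 min arrays. Hsp68 averaged 2.72 ± 0.31 at 1 h and 2.62 ± 0.12 after acclimation, and stv averaged 0.13 ± 0.25 and -0.01 ± 0.09. DnaJ-1 differed, since its acclimated arrays averaged 2.72 ± 0.09 and overlapped control at 2.72 ± 0.11, while the 1 h arrays averaged 3.57 ± 0.29.

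The difference between 1 h of recovery and acclimation was tested after these levels had been seen, and limma called 22.1% of all genes in it, 13.6% higher and 8.45% lower at 1 h. DnaJ-1 was higher at 1 h by 0.85 ± 0.14 log2 units (SE; adjusted p = 0.000389 in limma). The differences of the other genes did not pass, at -0.44 for hsr-omega (95% interval -0.81 to -0.06), 0.09 for Hsp68 (-0.22 to 0.41) and 0.14 for stv (-0.14 to 0.42). Against hardening, where 4.23% of all genes were called (3.29% higher and 0.939% lower), all 4 genes were higher at 1 h, by 2.27 (hsr-omega), 1.20 (DnaJ-1), 1.01 (Hsp68) and 1.05 log2 units (stv). Their adjusted p in limma ran from 1.75e-07 to 0.000264. The 4 genes were picked by a difference that used the same 1 h arrays, so these values do not test their rise anew.

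Of the 22 measured heat shock and chaperone genes, 4 rose and 0 fell between 15 min and 1 h, against 1.88% called among all genes. The differences of the other 18 members lay between -0.47 and 0.29, and the median over the list was 0.07, beside 0.01 over all genes. The number of positive differences depended on the processing: 17 with the 75th percentile scaling, but 11 with the authors' processed values and 10 with normexp. Beyond the 4 called genes the list therefore held small differences in both directions.

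**Figure D3:**
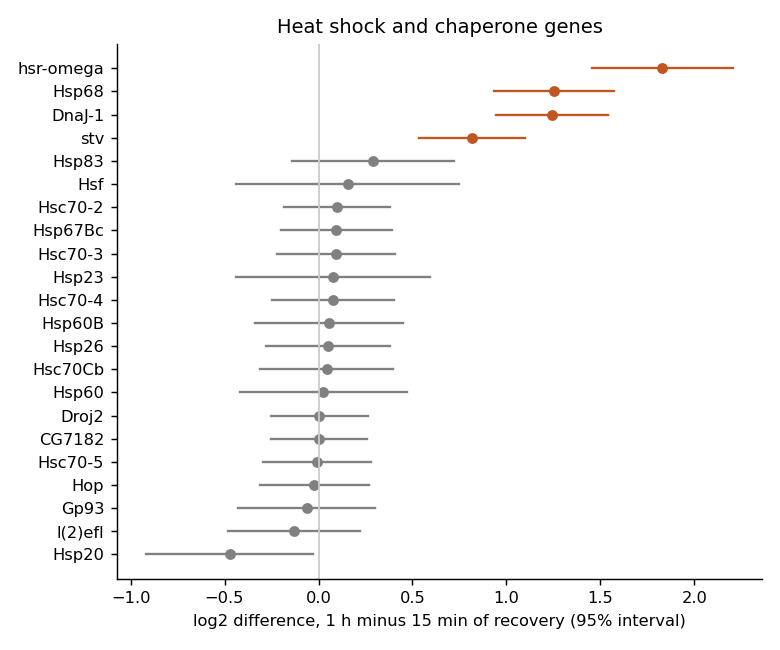
Log2 difference of 1 h minus 15 min of recovery with its 95% interval for the 22 heat shock and chaperone genes, ordered by the difference; orange marks an adjusted p under 0.05. The 4 called genes lie between 0.82 and 1.83, and the intervals of the other genes include 0, except that of Hsp20 (-0.92 to -0.03).

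The small heat shock proteins are ATP-independent holdases that bind unfolding proteins. None of those measured was called between the recovery times. Hsp26 stood at 8.77, 9.40 and 9.23 at 15 min and 9.14, 9.04 and 9.37 at 1 h, a difference of 0.05 (95% interval -0.28 to 0.38). Hsp23 differed by 0.08 (-0.44 to 0.60) and l(2)efl, an alpha-crystallin relative, by -0.13 (-0.48 to 0.22). Hsp20 had the lowest value of the list, with 1.05, 1.22 and 0.54 at 15 min and 0.23, 0.29 and 0.88 at 1 h. Those groups overlapped, and the difference of -0.47 did not pass (limma adjusted p = 0.486), while its 15 min level was 0.79 above control (limma adjusted p = 0.0300).

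The constitutive chaperones and the regulator of the response gave no call. Hsp83, the cytosolic Hsp90, had 4.40, 3.66 and 3.53 at 15 min and 4.40, 4.31 and 3.75 at 1 h, with replicate 1 level between the times. The mean difference of 0.29 (95% interval -0.14 to 0.72) did not pass in limma (adjusted p = 0.760). Hsc70-3, the BiP of the endoplasmic reticulum, differed by 0.09 (-0.22 to 0.41), Hsc70-4 by 0.08 (-0.25 to 0.40) and Hsc70-5, the mitochondrial form, by -0.01 (-0.29 to 0.28). Hsf itself varied widely, at -1.22, -1.87 and -1.79 at 15 min and -0.94, -1.15 and -2.32 at 1 h, and differed by 0.16 (-0.44 to 0.75). Hop, a co-chaperone that links Hsp70 and Hsp90, was at -0.02 (-0.31 to 0.27). For these genes, changes of the size seen in DnaJ-1 lay outside the intervals.

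CG5001 is a gene for a predicted J-domain protein in D. melanogaster and is not a member of the heat shock and chaperone list. Its levels were 0.37, 0.54 and 0.40 at 15 min and 0.89, 0.70 and 0.74 at 1 h. The groups did not overlap, but the difference of 0.34 ± 0.11 (SE) did not pass in limma (adjusted p = 0.138). Of its 5 probes, 2 passed when tested alone, and the probes ran from 0.05 to 0.72. Over all 860 probes of the brighter orientation, limma called 22 higher and 0 lower at 1 h, and besides the 4 called genes and CG5001 these belonged to sbb, a gene for a zinc-finger protein. The called probe of sbb was well above background on 0 of 3 arrays at 15 min and 1 of 3 at 1 h, so its call compares values near background.

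**Figure D4:**
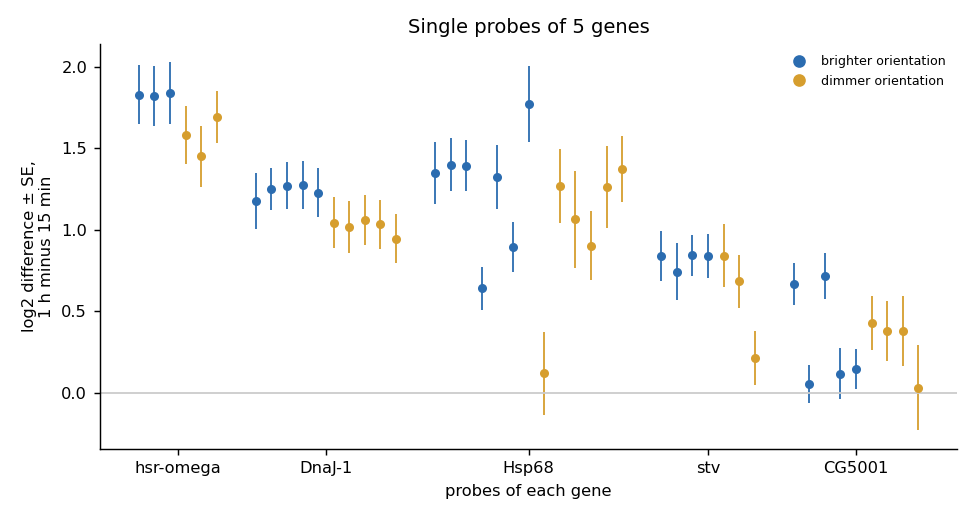
Log2 difference of 1 h minus 15 min, with its SE, for each single probe of hsr-omega, DnaJ-1, Hsp68, stv and CG5001; blue marks the brighter orientation of each probe pair and yellow the dimmer. The probes of hsr-omega and DnaJ-1 lie close together within each orientation, those of Hsp68 spread from 0.64 to 1.77 in the brighter orientation, and those of CG5001 run from 0.05 to 0.72 in the brighter orientation and from 0.03 to 0.43 in the dimmer.

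Of 5 measured candidate genes for the cold response, hsr-omega and stv, already counted in the heat shock list, rose and 0 fell, against 1.88% called among all genes. Fst (Frost), the gene named for its induction by cold in D. melanogaster, had 0.06, 0.20 and -0.40 at 15 min and 0.23, 0.43 and -0.29 at 1 h. The groups overlapped and the difference was 0.17 (95% interval -0.40 to 0.74), with control arrays at 0.42, -0.48 and 0.34. Dca, whose D. melanogaster form is known for lower expression in the cold, had 4.41, 4.73 and 4.05 at 15 min and 4.00, 3.93 and 3.80 at 1 h. Its difference of -0.49 did not pass in limma (adjusted p = 0.486), although the groups did not overlap.

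Thor encodes 4E-BP, the inhibitor of cap-dependent translation that acts below insulin and TOR signalling and is transcribed under stress through Foxo. Its levels were 3.96, 4.30 and 4.00 at 15 min and 4.65, 4.56 and 4.53 at 1 h, beside 3.33, 3.51 and 3.29 in control. Each group lay above the one before without overlap. Against control, Thor rose at 15 min by 0.71 (limma adjusted p = 0.00835) and at 1 h by 1.21 (limma adjusted p = 2.26e-05). The step from 15 min to 1 h, 0.49 ± 0.14 (SE), did not pass in limma (adjusted p = 0.0929). It did pass with quantile normalization (0.0370), with the authors' processed values (0.0216) and without 15 min replicate 2 (0.0427). InR, the insulin receptor, differed by 0.31 (95% interval -0.08 to 0.70), and 0 of the 5 measured genes of insulin signalling and diapause were called. Against control, InR was lower at 15 min by -0.76 (limma adjusted p = 0.0244) and was not called at 1 h, at -0.45 (limma adjusted p = 0.231). Of its 2 probes, 1 was well above background on all arrays of each recovery time.

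All 6 measured genes of carbohydrate metabolism had negative differences, from -0.58 to -0.14, and 0 were called. Treh, the trehalase that splits the blood sugar of insects, had 1.63, 1.72 and 1.55 at 15 min and 1.17, 1.33 and 1.00 at 1 h. These groups did not overlap, and the difference of -0.47 ± 0.13 (SE) had the smallest p among the genes that were not called (limma adjusted p = 0.0929). It passed with quantile normalization (0.0302), the authors' processed values (0.0216) and the 75th percentile over detected probes (0.0191). Adh (alcohol dehydrogenase) differed by -0.58, with an interval from -1.25 to 0.09, and Pgm (phosphoglucomutase) by -0.21 (-0.46 to 0.04). One of the 6 differences was positive with quantile normalization and with the authors' values.

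Among 9 measured genes of lipid metabolism and desaturation, 8 differences were negative and 1 positive, and 0 were called. The median was -0.37, beside 0.01 over all genes, and 4 of the negative members had an unadjusted p under 0.05, against 3.76% of all genes in that direction. Cyt-b5-r, a cytochrome b5-related gene, had 5.75, 5.89 and 5.63 at 15 min and 5.27, 5.50 and 5.10 at 1 h. Its groups did not overlap and its difference of -0.47 did not pass in limma (adjusted p = 0.0929), except with the slide as a block (0.0191) or the 75th percentile over detected probes (0.0196). At 15 min it was 0.46 above control (limma adjusted p = 0.0483), and at 1 h the difference from control was 0.00 (limma adjusted p = 0.991). CG12030 had the same course, with -0.40 between the times (limma adjusted p = 0.142), 0.45 at 15 min against control (limma adjusted p = 0.0449) and 0.05 at 1 h (limma adjusted p = 0.825).

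The desaturase genes desat1 and desat2, whose products put double bonds into fatty acids, stood on the negative side with wider spreads. desat1 had 7.27, 8.07 and 7.82 at 15 min and 7.14, 7.16 and 7.30 at 1 h, and desat2 had 5.28, 6.06 and 5.68 against 4.94, 4.98 and 5.38. In both genes 15 min replicate 1 lay close to the 1 h arrays. Neither difference passed in limma, at -0.52 (adjusted p = 0.259) and -0.57 (adjusted p = 0.246). Without 15 min replicate 1, desat1 passed at -0.74 (limma adjusted p = 0.0433).

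**Figure D5:**
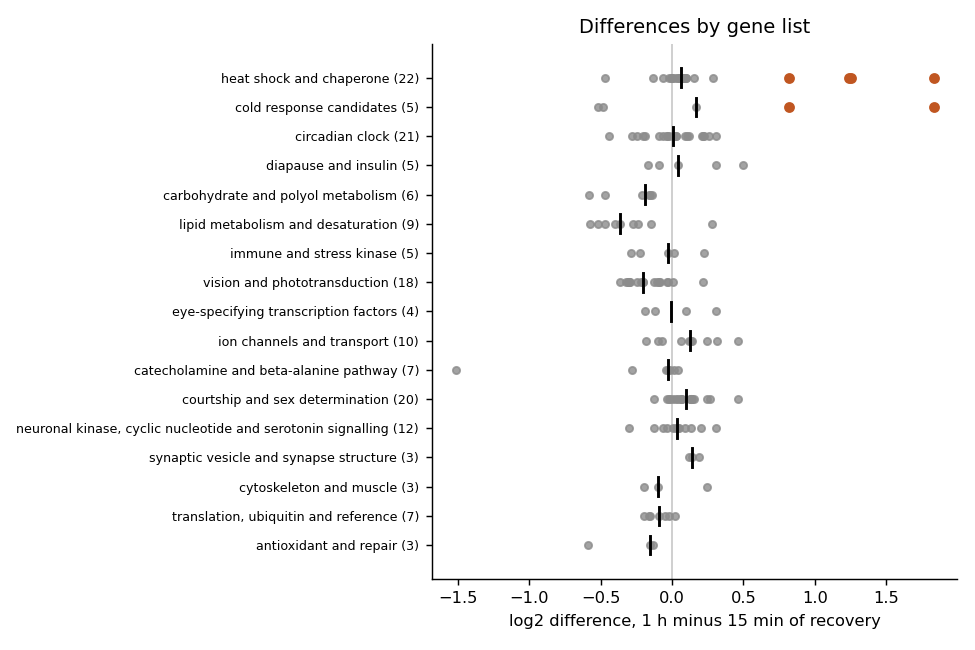
Log2 difference of 1 h minus 15 min of recovery for the members of each gene list with 3 or more measured genes (number measured in brackets), 1 grey point a gene, orange where the adjusted p was under 0.05, and a black line at the median of the list. Called genes occur in the heat shock list and among the cold response candidates, and the medians of all lists lie between -0.37 and 0.17.

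Of 21 measured clock genes, 0 were called. The list shares norpA, Rh5 and Rh6 with the vision list, so the counts of these lists repeat each other in part. With the 75th percentile scaling 11 differences were positive and 10 negative, and with quantile normalization, spike-in scaling or the authors' values 8 were positive and 13 negative. per and tim, whose products form the repressor complex of the clock, differed by -0.02 (95% interval -0.29 to 0.24) and -0.03 (-0.31 to 0.25), and vri, a repressor of Clk transcription, by 0.21 (-0.45 to 0.88). cry, the blue-light receptor that resets the clock, had 0.38, 0.54 and 0.23 at 15 min and -0.27, 0.06 and 0.03 at 1 h. These groups did not overlap, and the difference of -0.44 (95% interval -0.73 to -0.15) did not pass in limma (adjusted p = 0.130).

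Of 18 measured vision genes, 16 differences were negative and 0 were called, with a median of -0.20. ninaE, the main rhodopsin, had 6.02, 6.17 and 5.83 at 15 min and 5.51, 5.95 and 5.58 at 1 h, and differed by -0.32 (limma adjusted p = 0.648). Arr2, the arrestin that quenches it, differed by -0.36 (limma adjusted p = 0.648). With normexp, 11 of the 18 were negative. All 12 listed photoreceptor markers were measured, and all are members of the vision list, so they repeat part of its counts. Of them 10 had a negative difference, and the median was -0.27. Their mean level ran from 0.81 to 1.12 at 15 min and from 0.61 to 1.09 at 1 h, so the groups overlapped. The part of head tissue in the vision values was not tested.

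The list of ion channels and transport, which also holds the helicase gene mle and the dynamin gene shi, gave 7 positive and 3 negative differences among 10 measured, and 0 calls. Its members para and eag had no probe well above background on all arrays of either recovery time. cac, a voltage-gated calcium channel subunit, had -3.58, -3.63 and -3.77 at 15 min and -3.24, -3.02 and -3.34 at 1 h. Its difference of 0.46 did not pass in limma (adjusted p = 0.259). Its difference from control was -0.72 at 15 min (limma adjusted p = 0.0244) and -0.25 at 1 h (limma adjusted p = 0.481). tipE, an auxiliary subunit of the para sodium channel, had -0.65 at 15 min against control (limma adjusted p = 0.0300) and -0.33 at 1 h (limma adjusted p = 0.360), with 0.32 between the times (limma adjusted p = 0.648). Of 10 listed neuron markers 6 were measured and 0 called. All but Syt1, of the synapse list, are also in the channel list, so they repeat its values. Among the 6 were para and eag. The mean level of the other 4 ran from -3.96 to -3.71 at 15 min and from -3.77 to -3.50 at 1 h, with 3 positive differences and 1 negative. These ranges overlapped, and the part of nervous tissue in the channel values was not tested.

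Eip71CD, a methionine sulfoxide reductase that repairs oxidised proteins, had fallen by 15 min and was not called between the times. It stood at 2.24, 2.67 and 2.07 in control, -0.59, 0.12 and -0.23 at 15 min and -0.99, -0.93 and -0.54 at 1 h. The difference from control was -2.56 at 15 min (limma adjusted p = 0.00199) and -3.15 at 1 h (limma adjusted p = 3.14e-05). Between the times it was -0.59 ± 0.40 (SE; limma adjusted p = 0.760), with overlapping arrays.

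The gene b (black), which encodes the decarboxylase that makes beta-alanine, had the lowest difference of all, -1.51, and also a wide spread. Its levels were 0.47, -0.75 and -2.99 at 15 min, -3.22, -2.98 and -1.61 at 1 h, and -3.20, -3.52 and -0.84 in control. The groups overlapped, the 95% interval ran from -3.09 to 0.06, and the difference did not pass in limma (adjusted p = 0.648). It passed where the fit held only the 6 recovery arrays (limma adjusted p = 0.0454), and the cause of this change was not tested. Its 7 probes ran from -1.58 to -1.43. Of the 7 measured genes of the catecholamine and beta-alanine pathway, 0 were called.

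The lists for courtship and sex determination (20 measured), neuronal kinases and serotonin signalling (12), translation and reference genes (7), immune and stress kinases (5), eye-specifying factors (4), synapse structure (3), cytoskeleton (3) and antioxidant genes (3) had 0 calls. The courtship list shares cac, para, slo, eag and mle with the channel list. It also shares for, rut, dnc, Pka-C1 and CaMKII with the kinase list, so its counts repeat part of theirs. Courtship genes had 16 positive and 4 negative differences with a median of 0.10, but 12 and 8 with quantile normalization or the authors' values. Among them tra, the female splicing regulator of sex determination, differed by 0.27 (limma adjusted p = 0.707). Gapdh1 and Gapdh2 of the translation and reference list are also in the carbohydrate list, and Act42A is also in the cytoskeleton list. Of the translation and reference genes 6 of 7 differences were negative, with a median of -0.09. All 7 were negative with normexp, where the median was -0.37, and 4 were positive with the authors' values. Act42A (an actin) differed by -0.20 (95% interval -0.47 to 0.08) and Gapdh2 by -0.16 (-0.44 to 0.11). ey, the Pax6 gene, differed by 0.31 without overlap, but none of its probes was well above background on all 3 arrays of 15 min. Of the marker genes of muscle, Mhc and sls were measured, both also in the cytoskeleton list, with 1 positive and 1 negative difference. Of those of fat body, 2 of 7 were measured, desat1 and Adh. Their mean level ran from 6.68 to 7.32 at 15 min and from 6.35 to 6.48 at 1 h, without overlap. desat1 is also in the lipid list and Adh in the carbohydrate list, so these values repeat theirs. The part of fat body in the lipid and carbohydrate values was not tested. The listed markers of ovary and testis are not among the measured genes, so the share of these tissues in the RNA was not tested.

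In the comparisons of each time with control, which share the control arrays, limma called 6.57% of the genes at 15 min, with 5 higher (2.35%) and 9 lower (4.23%), and 2.82% at 1 h, with 5 higher (2.35%) and 1 lower (0.469%). The genes higher at 1 h were hsr-omega, Hsp68, Thor, stv and DnaJ-1, and the lower one was Eip71CD. The genes higher at 15 min were Hsp20, Thor, Ubi-p63E, Cyt-b5-r and CG12030, with differences from 0.45 to 0.79. The genes lower at 15 min were Eip71CD, spin, mnb, InR, cac, tipE, Ork1, CG14650 and sbb, with differences from -2.56 to -0.46. The 4 genes called between the times had differences from control of -0.39 to 0.22 at 15 min and 0.85 to 1.63 at 1 h. They were picked by the difference between these same recovery arrays, so these values do not test their rise anew.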

How the data were processed

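Total RNA (600 ng a pool) was labelled with Cy3 and hybridised to custom Agilent arrays, per the labels' protocols. The authors deposited the intensity of every spot as read by Feature Extraction, version 10.7.1.1 in the file headers, with processed signals that are background-subtracted and not normalized between arrays. A second intensity table of the authors holds values of unstated normalization. Its numbered rows were taken as probes in name order, where every column correlated at 0.996 or more with its array. Over the D. montana arrays, 1455 of the 1850 rows were nearest to the probe of their rank, and the rest were nearer to another probe. Each array had 15336 spots, of which 14800 were 1850 probes with 8 spots each, in 925 pairs of both orientations. The median gap between orientations was 4.65 log2 units, and the brighter probe was used.

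From these files, log2 processed signals were averaged over unflagged spots, the 75th percentile of each array was subtracted, and the probes of a gene were averaged if some group had them well above background on each of its 3 arrays. Genes carry the names found in the probe names; 162 of 218 match RefSeq symbols of the D. montana assembly, used for names only, and no coordinates or sequences are given. Models were fitted with limma 3.58.1 in R 4.3.3 on 15 arrays (5 groups of 3), with Benjamini-Hochberg adjustment over 213 genes and a threshold of 0.05. The fit was tested on simulated data. Named genes were the called genes, the 2 smallest p-values of each list with 3 or more measured genes, the 10 smallest p-values and a fixed set of stress, clock and metabolic genes. Hsp20, Hsf, Hsc70-4, Hsc70-5, Hop, desat2, sbb, pwn, para, eag, Mhc, Ubi-p63E, spin, Ork1 and CG14650 were named outside this rule after their values were seen. The members and lists were chosen with earlier results of these data known. The files hold no mean signal, so normexp (offset 50) used the median signal. The sample titles number the 1 h replicates 1 to 3, another label numbers them otherwise, and the titles were used. Alternatives were other scalings, background corrections, probe rules, blocks, weights and leaving out single arrays.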

Additional observations from a re-analysis of the deposited data

Results flagged for a closer look

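The dimmer probe of each pair was left out of every level above. Among 615 dimmer probes well above background, limma called 14 higher at 1 h than at 15 min and 0 lower, and all 14 belong to hsr-omega (3 of 3 probes), DnaJ-1 (5 of 5), Hsp68 (4 of 6) and stv (2 of 3). Against control, the mean difference at 1 h of the dimmer probes was 1.59 log2 units for hsr-omega, 1.45 for Hsp68, 0.878 for stv and 0.846 for DnaJ-1. The brighter probes had 1.63, 1.26, 1.03 and 0.85. The source of the signal of the dimmer orientation was not tested.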

How the results depend on the processing

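Of the 26 alternatives for single genes, hsr-omega kept its call in 26 (differences from 1.49 to 2.04), DnaJ-1 in 25 (0.886 to 1.35), Hsp68 in 25 (0.862 to 1.40) and stv in 24 (0.505 to 0.895), as named in the report. With normexp 1 gene was called higher, which is 1 of the heat shock list. The count of lower genes was 0 and became 1 with quantile normalization and the authors' values (Treh), with only the 6 recovery arrays (b), with the slide as a block (Cyt-b5-r) and with the array's 75th percentile as a covariate (desat2), and 2 with the 75th percentile over detected probes (Cyt-b5-r and Treh); leaving out single arrays gave 0 to 1 (desat1, without 15 min replicate 1). The recovery arrays with the same replicate number shared a slide. Their deviations from the group means correlated at 0.205, -0.368 and -0.0169, beside -0.397 to 0.538 for arrays of different numbers. Arrays of the same number were therefore not taken as pairs. With a replicate block, 4 genes were called higher and 0 lower, the same 4 genes. At 15 min against control, DnaJ-1 was at -0.515 with spike-in scaling, -0.562 with the median, -0.611 with normexp, -0.192 with the covariate and -0.393 with the slide block (adjusted p = 0.0448), and at -0.459 to -0.338 without single arrays, where it passed without 1 h replicate 1 (adjusted p = 0.0447). Hsp68 at 15 min, near 0, changed sign to -0.120 (spike-in), -0.0293 (quantile), -0.166 (median), -0.104 (normexp), -0.0450 (authors' values) and -0.0619 (median over probes), was at 0.0953 with the detected probes, 0.210 with both orientations and 0.225 with the covariate, and ran from -0.0382 to 0.0426 without single arrays. hsr-omega at 15 min was at -0.365 (median) and -0.431 (normexp), and stv at 0.0471 (median). At 1 h against control, DnaJ-1 was at 0.688 (spike-in), 0.619 (median) and 0.291 (normexp), Hsp68 at 0.758 and hsr-omega at 1.06 with normexp, all no longer past the threshold. The cause of these changes was not tested. Of the 40 named genes not called, 9 changed sign and 5 passed under at least 1 alternative. The covariate and the replicate block in the fit of 6 arrays were chosen after seeing the data, as were the comparisons with acclimation and hardening. Signal over background limits ey, whose probes were dim at 15 min.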
